A study of Mus musculus with 30 samples.

Results

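Smooth muscle cells (SMC) of the mouse small intestinal lamina propria were compared with the fibroblasts (FB) of the same tissue by RNA sequencing of sorted cells. The comparison was fixed by the sort labels: the 3 SMC libraries were set against the equally weighted mean of the 3 small intestinal FB populations, namely CD34+ FB, PDGFRα hi FB and Fgfr2+ FB with 3 libraries each, so that 12 of the 30 libraries of the series entered it. The series holds 10 mesenchymal populations of small and large intestine. All groups were sorted from untreated C57BL6/Nrj mice aged 8 to 10 weeks, after the muscularis externa, the Peyer's patches and the epithelium had been removed. The SMC described here are those of the remaining tissue, labelled as small intestinal lamina propria. Dead cells and cells positive for lineage markers, CD31, BP3, EpCAM or high levels of NCAM were gated out. Within the remaining cells, SMC were PDGFRα-ESAM-1+PDPN+, CD34+ FB (which take in Igfbp5+ and CD81+ FB) were ESAM-1-PDGFRα intCD34+, PDGFRα hi FB were ESAM-1-PDGFRα hiCD34- and Fgfr2+ FB were ESAM-1-PDGFRα intCD34-. Each sort used the pooled intestines of 3 mice, and the 3 libraries of a population came from independent experiments.

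Smooth muscle shortens when calcium entering through voltage-gated channels activates myosin light chain kinase, and the force of its actin and myosin filaments is carried to the cell surface by dense plaques. Transcription of its contractile genes is driven by serum response factor bound to CArG boxes together with the coactivator myocardin. In the intestinal mucosa, thin strands of such cells run through the villi and the muscularis mucosae, next to FB that deposit collagenous matrix and secrete signals for epithelial stem cells and leukocytes.

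Estimated counts per library were 8866828, 9512574 and 13507159 in SMC, 11729938, 11930055 and 9432531 in CD34+ FB, 7327358, 18148945 and 8041204 in PDGFRα hi FB, and 15098412, 10286761 and 2245052 in Fgfr2+ FB. The Fgfr2+ FB replicate 3 library was thus the smallest. SMC replicate 3 stood apart from the other SMC libraries. Mitochondrially encoded genes took 17.6% of its counts on annotated genes, against 4.59% and 5.95% in SMC replicates 1 and 2 and 1.84% to 3.22% in the 9 FB libraries, and its 100 most abundant genes took 41.7%, against 28.2% and 28.3%. Across genes, its log2 values, in counts scaled by library size (CPM), correlated with those of SMC replicates 1 and 2 at r = 0.699 and 0.692, whereas these 2 libraries correlated with each other at r = 0.848, where genes are not independent replicates. The Fgfr2+ FB libraries correlated with each other at similar values (r = 0.679 to 0.735). SMC replicate 3 also had fewer genes with 6 or more counts, 12298 against 14482 and 14306 in SMC replicates 1 and 2. Its TMM scaling factor was 0.696, against 1.101 and 1.108. Results are therefore also given without SMC replicate 3.

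The label was checked first against the smooth muscle markers *Myh11*, *Actg2* and *Acta2*. *Myh11*, the smooth muscle myosin heavy chain, was at 11889, 9292 and 12907 CPM in the 3 SMC libraries, and at 38.9 CPM (lowest), 240 CPM (median) and 2050 CPM (highest) in the 9 FB libraries. *Acta2*, smooth muscle α-actin, was at 4789, 3845 and 4552 CPM in SMC and between 33.5 and 1220 CPM in FB. *Actg2*, the enteric smooth muscle γ-actin, was at 1976, 1857 and 1254 CPM in SMC and between 2.36 and 41.4 CPM in FB. For all 3 markers every SMC library lay above every FB library, with log2 fold changes of 5.52 (SE 0.20), 4.23 (SE 0.22) and 7.53 (SE 0.51) and adjusted p of 7.93e-10, 2.55e-08 and 4.51e-07 in edgeR's quasi-likelihood test. The markers did not have the same level in the 3 FB populations, since mean *Myh11* was 44.2 ± 6.66 CPM in CD34+ FB, 1511 ± 488 CPM in PDGFRα hi FB and 252 ± 53.4 CPM in Fgfr2+ FB (SD, n = 3).

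Genes of the sorting gate describe the gate and not a finding. Of the 9 tested, *Esam* and *Ncam1* were higher and *Pdpn*, *Pdgfra* and *Cd34* lower in SMC, beside 4.73% and 2.56% of all genes. The median log2 fold change of the 9 was 0.30, or 0.59, -0.01 and 0.19 without SMC replicate 1, SMC replicate 2 and Fgfr2+ FB replicate 2. *Esam*, the endothelial cell adhesion molecule used to sort SMC, was at 115, 91.9 and 146 CPM in SMC and at no more than 1.71 CPM in FB. *Pdgfra* was at 16.2, 23.6 and 39.8 CPM in SMC against means of 813, 6417 and 621 CPM in CD34+, PDGFRα hi and Fgfr2+ FB. *Pdpn* transcripts were at 12.9, 5.58 and 11.3 CPM in the PDPN+ SMC and between 21.1 and 93.3 CPM in FB. *Ncam1* was at 1005, 1202 and 3725 CPM in SMC, and its log2 fold change of 2.16 became 1.27 without SMC replicate 3, which ended the call. The tenth gene of the gate, *Epcam*, was at 0 in all 3 SMC libraries.

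The comparison with the pooled FB was made on the log2 scale, as SMC minus the mean of the log2 means of the 3 FB populations, and a gene was called at an adjusted p below 0.05 and a log2 fold change above 1.5 in either direction. Of 15965 genes tested, 1164 (7.29%) were called, 755 (4.73%) higher and 409 (2.56%) lower in SMC, and the median log2 fold change of all genes was 0.03. Against single populations, 360 genes (2.25%) were higher and 439 (2.75%) lower than in CD34+ FB, 572 (3.58%) higher and 527 (3.3%) lower than in PDGFRα hi FB, and 483 (3.03%) higher and 416 (2.61%) lower than in Fgfr2+ FB. These contrasts share the SMC libraries. Called against the mean and against each of the 3 populations were 160 genes higher and 132 genes lower in SMC. In 595 genes (3.73%) every SMC library was above all 9 FB libraries, and in 507 (3.18%) every SMC library was below them.

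Part of the larger number of genes higher in SMC rested on SMC replicate 3. Without it, 451 genes were higher and 365 lower, of which 387 and 295 were among the 755 and 409 above. SMC replicate 3 was the highest SMC library in 519 of the 755 genes, and 24 of them changed sign without it. The split also depended on the processing. Genes called higher made up 64.9% of all calls, 65.2% with RLE factors, 62.0% with upper-quartile factors and 54.6% with library totals only (509 higher, 424 lower), which moved the median of all genes to -0.11. With DESeq2, which changes the test as well, they made up 54.6% (883 higher, 734 lower). No gene list described here had a median of opposite sign under DESeq2, RLE, upper-quartile or library-total scaling.

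The contractile apparatus was higher in SMC almost as a whole. Of 21 filament and filament-associated proteins, all tested, 18 were higher and none lower, against 4.73% and 2.56% of all genes, and their median log2 fold change was 3.01, or 2.80 without SMC replicate 3, against 0.03 for all genes. Of these 21, 19 were higher than in CD34+ FB (2.25% of all genes), 12 than in PDGFRα hi FB (3.58%) and 18 than in Fgfr2+ FB (3.03%). In 15 of them every SMC library was above all 9 FB libraries (3.73% of all genes). Fewer SMC-like cells in a sorted FB population and less contractile RNA per cell cannot be told apart in bulk libraries.

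In several of these genes no FB library approached the SMC libraries. *Cnn1*, which encodes the actin-binding protein calponin, was at 1075, 1047 and 888 CPM in SMC, and at 0.68 (lowest), 1.06 (median) and 2.46 CPM (highest) in FB. *Lmod1*, leiomodin, which nucleates actin filaments in smooth muscle, was at 717, 658 and 573 CPM in SMC and between 0.34 and 10.8 CPM in FB. The SMC libraries were close to each other in both genes and far above every FB library, with log2 fold changes of 9.72 (SE 0.28, adjusted p = 9.8e-11) and 7.77 (SE 0.25, adjusted p = 2.31e-10). *Des*, the intermediate filament protein desmin, was at 826, 780 and 474 CPM in SMC and between 17.8 and 150 CPM in FB (log2 fold change 3.87, SE 0.35, adjusted p = 5.82e-06). Scaled by transcript length as well (TPM), *Des* was at 549, 516 and 117 in SMC and at 479, 429 and 599 in small intestinal pericytes. *Cnn1* and *Lmod1* had mean TPM of 688 and 259 in SMC and of 4.09 and 60.7 in pericytes.

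Other contractile genes were abundant in SMC and present at lower levels in FB. *Mylk*, the myosin light chain kinase, was at 6263, 5286 and 8062 CPM in SMC and at 311 (lowest), 796 (median) and 2564 CPM (highest) in FB. *Tpm1* and *Tpm2*, the tropomyosins that lie along actin, were at 4644 ± 543 and 2243 ± 705 CPM in SMC (SD, n = 3), with log2 fold changes of 2.58 and 3.53. In all 3 genes the groups did not overlap, and for *Mylk* the log2 fold change was 3.01 (SE 0.16, adjusted p = 4.07e-08). *Ppp1r12a* and *Ppp1r12b*, which target myosin phosphatase to myosin, had log2 fold changes of 2.32 and 2.62, and both were higher in SMC than in each FB population. *Pdlim3* and *Synpo2*, proteins of actin filament anchorage, had log2 fold changes of 3.29 and 2.33.

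For some contractile genes PDGFRα hi FB came closer to SMC than CD34+ or Fgfr2+ FB. *Tagln*, which encodes the actin-bundling protein SM22, was at 587, 581 and 336 CPM in SMC, 169, 342 and 220 CPM in PDGFRα hi FB, 7.1, 8.89 and 13.8 CPM in CD34+ FB and 21.1, 30.6 and 43.8 CPM in Fgfr2+ FB. SMC replicate 3 lay just under the highest PDGFRα hi FB library, so the groups overlapped. The log2 fold change was 3.60 against the mean (adjusted p = 1.36e-06), and 5.70, 1.09 and 4.01 against CD34+, PDGFRα hi and Fgfr2+ FB, where the difference from PDGFRα hi FB was not called (adjusted p = 0.0995). The myosin regulatory light chain *Myl9* (log2 fold change 3.41 against the mean and 1.42 against PDGFRα hi FB) and *Mrvi1*, a partner of cGMP-dependent kinase (1.98 and 0.26), were likewise called against the mean but not against PDGFRα hi FB. *Myl6*, an essential myosin light chain, was also higher against the mean (1.91), but 65.4% of its 31-base stretches also occur in other genes, so its level is uncertain. *Cald1*, caldesmon, was called only with SMC replicate 3, since its log2 fold change of 1.72 became 0.96 without it. The 3 contractile genes that were not called were *Smtn* (log2 fold change 1.24), *Synm* (0.62) and *Ppp1r14a* (1.35, and 1.59 and called without SMC replicate 3).

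**Figure D1:**
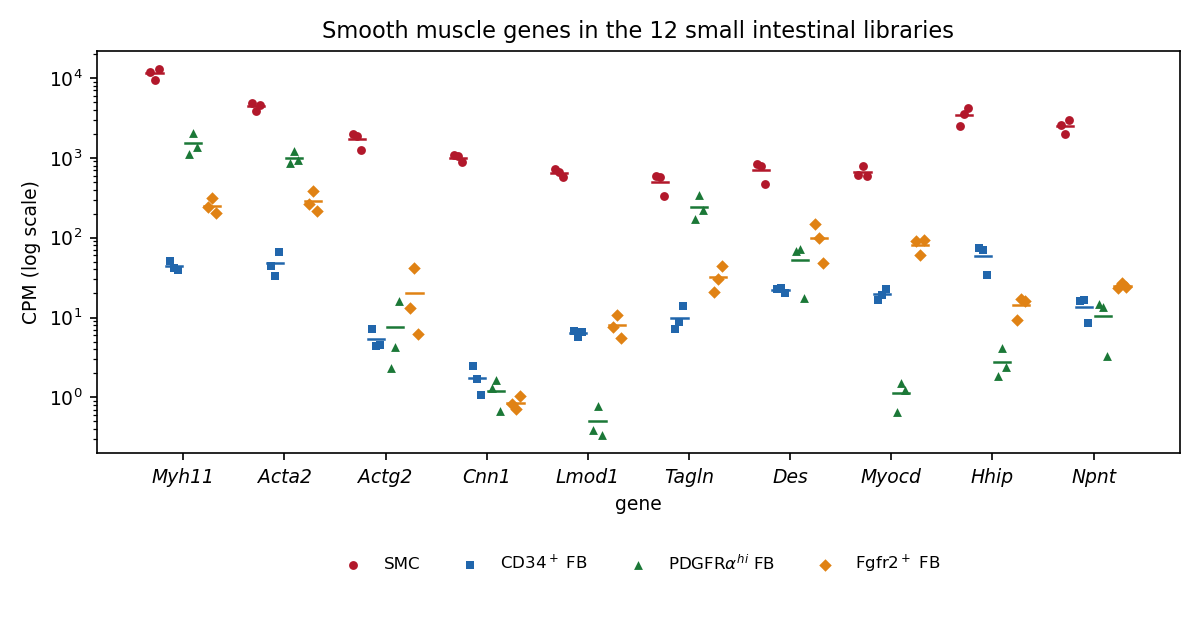
CPM on a log axis for 10 smooth muscle genes in the 12 small intestinal libraries, with 1 point per library and a line at the mean of each population (n = 3). In 9 of the 10 genes all SMC libraries lie above all FB libraries, whereas in *Tagln* the PDGFRα hi FB reach 342 CPM, above the lowest SMC library at 336 CPM.

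Of 13 transcription regulators of smooth muscle tested, 3 were higher in SMC and none lower, against 4.73% and 2.56% of all genes, and the median log2 fold change was 1.14 (0.99 with the gene that had a population at 0 set to its bound, 0.73 without SMC replicate 3). *Myocd*, the coactivator myocardin, was at 608, 779 and 592 CPM in SMC, 16.7, 19.1 and 22.7 CPM in CD34+ FB, 0.656, 1.5 and 1.25 CPM in PDGFRα hi FB and 89.9, 60.5 and 92.8 CPM in Fgfr2+ FB. The order of the FB populations thus differed from that of *Myh11* and *Tagln*, with PDGFRα hi FB lowest for *Myocd* and highest for the other 2 genes. The log2 fold change of *Myocd* was 5.78 (SE 0.23, adjusted p = 1.38e-09). *Mef2c*, a myocyte enhancer factor, was at 132, 154 and 60.1 CPM in SMC and at no more than 33.7 CPM in FB (log2 fold change 3.25, SE 0.61, adjusted p = 0.00354, or 3.87 without Fgfr2+ FB replicate 3), and among single populations was called against PDGFRα hi FB only. *Srf*, the serum response factor, had a log2 fold change of 1.54 next to the threshold of 1.5. Its call was lost without SMC replicate 1 (1.43) or 3 (1.36), CD34+ FB replicate 1 (1.48), PDGFRα hi FB replicate 3 (1.46) or Fgfr2+ FB replicate 2 (1.49). The intestinal homeobox gene *Nkx2-3* was at 503, 514 and 431 CPM in SMC and between 122 and 487 CPM in FB and was not called (log2 fold change 1.14, adjusted p = 0.0305).

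Channels and calcium handling genes were divided. Of 22 listed and 19 tested, 7 were higher and 1 was lower in SMC, against 4.73% and 2.56% of all genes, and the median log2 fold change was 1.17, or 0.51 without SMC replicate 3. *Cacna1c*, the pore of the L-type calcium channel, was at 434, 392 and 392 CPM in SMC and between 6.3 and 39.3 CPM in FB. *Kcnma1*, the pore of the large-conductance calcium-activated potassium channel, was at 372, 324 and 355 CPM in SMC and between 1.97 and 16.2 CPM in FB, and its β1 subunit *Kcnmb1* was at 271, 184 and 382 CPM and between 13.7 and 82.2 CPM. For these 3 genes the SMC libraries were above all FB libraries, with log2 fold changes of 4.31 (SE 0.38), 5.88 (SE 0.27) and 3.11 (SE 0.28) and adjusted p of 4.95e-06, 7.19e-09 and 5.49e-06. The T-type calcium channel *Cacna1h*, at 220, 155 and 64.4 CPM in SMC and no more than 13.5 CPM in FB, was also higher than in each FB population, and the plasma membrane calcium pump *Atp2b4*, at 467, 444 and 443 CPM in SMC and no more than 223 CPM in FB, was called against the mean and PDGFRα hi FB, but not with library totals only or with PDGFRα hi FB left out of the mean.

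The remaining called channel and store genes differed by FB population. *Casq2*, the calcium-binding protein calsequestrin, was at 76.3, 111 and 70.6 CPM in SMC, 162, 216 and 126 CPM in PDGFRα hi FB, at no more than 1.8 CPM in CD34+ FB, and at 1.92, 18.5 and 20.8 CPM in Fgfr2+ FB. All PDGFRα hi FB libraries were therefore above all SMC libraries, and the log2 fold change of 2.55 against the mean (adjusted p = 0.00199) rested on CD34+ FB and Fgfr2+ FB. *Trpc6*, a receptor-operated cation channel, was at 30.3, 15.8 and 87.3 CPM in SMC, at 0 in PDGFRα hi FB and at 0.284, 0.0855 and 0 CPM in CD34+ FB, while 1 Fgfr2+ FB library reached 3.47 CPM. In small intestinal pericytes *Trpc6* was at 39.6, 35.4 and 18.6 CPM. The 1 gene lower in SMC was *Abcc9*, the sulfonylurea receptor of ATP-sensitive potassium channels, at 10.3, 9.05 and 23.6 CPM in SMC and 1557, 1640 and 2074 CPM in PDGFRα hi FB. The other FB libraries had 17.9 to 51.4 CPM, and *Abcc9* was lower than in PDGFRα hi FB but not called against CD34+ or Fgfr2+ FB (log2 fold change -6.89 against PDGFRα hi FB). Without SMC replicate 3 its difference from the mean widened to -3.60.

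Of 24 receptors and second messenger enzymes of contraction and relaxation tested, 5 were higher and none lower (1 lower without SMC replicate 3 or Fgfr2+ FB replicate 1), against 4.73% and 2.56% of all genes, and the median log2 fold change was 0.90, or 0.49 with 4 higher without SMC replicate 2. *Prkg1*, the cGMP-dependent kinase that relaxes smooth muscle, was at 125, 95.5 and 196 CPM in SMC and between 6.56 and 28.3 CPM in FB (log2 fold change 3.24, SE 0.29, adjusted p = 5.87e-06). *Pde5a*, which hydrolyses cGMP, was at 616, 613 and 901 CPM in SMC and between 106 and 266 CPM in FB (log2 fold change 2.02, SE 0.22, adjusted p = 3.25e-05). Both genes of the cGMP pathway were higher in SMC than in each FB population. The vasopressin receptor *Avpr1a* (log2 fold change 3.97) and the ADP receptor *P2ry1* (1.98) were called against the mean, CD34+ FB and PDGFRα hi FB but not against Fgfr2+ FB, where *Avpr1a* was at 53.6, 88.8 and 62.9 CPM beside 79.4, 74.9 and 160 CPM in SMC. The fifth, the prostaglandin receptor *Ptger3*, was at 0.835, 8.86 and 0 CPM in SMC and lost its call without SMC replicate 2.

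Dense plaque, focal adhesion and membrane skeleton genes were higher in SMC in 14 of 28 tested and lower in none, against 4.73% and 2.56% of all genes, and the median log2 fold change was 1.53, or 1.23 without SMC replicate 3 (13 higher). *Flna*, the actin cross-linker filamin A, was at 5233, 4007 and 4744 CPM in SMC and at 366 (lowest), 617 (median) and 1934 CPM (highest) in FB. *Dmd*, dystrophin, was at 639, 809 and 1513 CPM in SMC and between 95.8 and 282 CPM in FB. In both genes the groups did not overlap and SMC were higher than each FB population, with log2 fold changes of 2.73 (SE 0.20) and 2.64 (SE 0.29). *Lpp*, a zyxin-family protein of dense bodies, was at 4562, 4399 and 10787 CPM in SMC, with a log2 fold change of 2.83, or 2.23 without SMC replicate 3. The focal adhesion protein *Tes* (4.92, 4.69 and 2.69 against CD34+, PDGFRα hi and Fgfr2+ FB), the septin regulator *Cdc42ep3* (3.96 against the mean), the LIM protein *Csrp1* (2.13) and vinculin, *Vcl* (1.70), were also higher. *Filip1l* lost its call without SMC replicate 3 (log2 fold change 2.13 and 1.36).

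Integrin and caveolar genes of this list again depended on the FB population. *Itga8*, the integrin chain that binds nephronectin, was at 100, 85 and 142 CPM in SMC and 128, 222 and 85.5 CPM in Fgfr2+ FB, but at no more than 6.34 CPM in CD34+ and PDGFRα hi FB. Its log2 fold changes were 4.81, 5.90 and -0.37 against CD34+, PDGFRα hi and Fgfr2+ FB, the last of them not called. *Cav1*, which forms caveolae, was at 225, 247 and 260 CPM in SMC and 180, 227 and 238 CPM in PDGFRα hi FB, against 2.95 to 40.3 CPM in the other 6 FB libraries, and was called against CD34+ and Fgfr2+ FB only.

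Basement membrane genes were mostly not called. Of 19 tested, 2 were higher and 5 lower, against 4.73% and 2.56% of all genes, and the median log2 fold change was -0.73. *Npnt*, nephronectin, was at 2562, 1973 and 2960 CPM in SMC and at 3.29 (lowest), 15.9 (median) and 26.9 CPM (highest) in FB, and was called against each FB population (log2 fold change 7.39 against the mean, SE 0.34, adjusted p = 7.62e-09). The other gene higher in SMC, the laminin chain *Lama5*, was at 88.7, 33.7 and 24.4 CPM and lost its call without SMC replicate 1 (log2 fold change 3.67 and 2.91, and 4.32 without Fgfr2+ FB replicate 2). The type IV collagen chains *Col4a5* and *Col4a6* were highest in PDGFRα hi FB. *Col4a5* was at 0.209, 0.289 and 0.862 CPM in SMC, 556, 472 and 581 CPM in PDGFRα hi FB and 0.985 to 28.7 CPM in the other FB libraries, and every SMC library was below every FB library for both chains (log2 fold changes -6.46, or -7.30 without SMC replicate 3, and -3.40), with *Col4a6* called against PDGFRα hi FB only. The ubiquitous chain *Col4a1* was at 1424, 1068 and 1596 CPM in SMC and between 792 and 1398 CPM in FB and was not called. *Lama4* was lower (log2 fold change -1.83). *Agrn* and *Col15a1*, the other 2 genes lower in SMC, had adjusted p of 0.0406 and 0.0393 and were lost in most refits with 1 library left out, which is why 3 genes of the list were lower without SMC replicate 1, without any 1 of the CD34+ FB libraries, without PDGFRα hi FB replicate 1 or 2, or without Fgfr2+ FB replicate 1. Without SMC replicate 3, *Agrn* had a log2 fold change of -1.22 in place of -1.64 (-2.30 without SMC replicate 2) and *Col15a1* of -4.99 in place of -2.59.

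Among interstitial matrix genes, more were lower than higher in SMC, and nearly as many were not called as were. Of 27 tested, 2 were higher and 12 lower, against 4.73% and 2.56% of all genes. Their median log2 fold change was -1.46, or -1.59 without SMC replicate 3. Of these genes 17 were lower than in CD34+ FB (2.75% of all genes), 10 than in PDGFRα hi FB (3.3%) and 8 than in Fgfr2+ FB (2.61%), and in 11 every SMC library was below all FB libraries (3.18%). *Fbn1*, fibrillin-1 of elastic microfibrils, was at 808, 625 and 616 CPM in SMC and at 1532 (lowest), 2693 (median) and 5034 CPM (highest) in FB. *Col5a1*, which initiates collagen fibrils, was at 481, 417 and 487 CPM in SMC and between 1190 and 2330 CPM in FB. Both were lower in every SMC library than in any FB library, with log2 fold changes of -1.95 (SE 0.20, adjusted p = 1.91e-05) and -1.79 (SE 0.24, adjusted p = 0.000213), and *Fbn1* was not called against Fgfr2+ FB (-1.32). *Col14a1*, a fibril-associated collagen, was at 7.51, 23.1 and 6.14 CPM in SMC and between 79.1 and 2673 CPM in FB (log2 fold change -5.61, or -6.45 without SMC replicate 2). *Mgp*, matrix Gla protein, an inhibitor of calcification, was at 0.313, 8.38 and 1.62 CPM in SMC and between 37.2 and 1258 CPM in FB (log2 fold change -5.51, or -7.34 without SMC replicate 2).

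For the chains of collagen I, the call depended on the chain and the population. *Col1a2* was at 1388, 1300 and 2117 CPM in SMC, with means of 11161 ± 4379, 3804 ± 475 and 3268 ± 537 CPM in CD34+, PDGFRα hi and Fgfr2+ FB (SD, n = 3). It was below all FB libraries (log2 fold change -1.65, adjusted p = 0.00124), but among single populations was called only against CD34+ FB (-2.75). *Col1a1* had a log2 fold change of -1.36 and was not called, and without SMC replicate 3 it was called at -2.00. Fibronectin, *Fn1*, and *Col6a2* had log2 fold changes of -1.58 and -1.65 and lost their calls without SMC replicate 2 (-1.43 and -1.49). *Lum*, the proteoglycan lumican, was lower by the mean (log2 fold change -1.96). *Fbln1* and *Fbln2*, fibulins of elastic fibres, had log2 fold changes of -4.00 and -4.45, but *Fbln1* was at 6.17, 7.79 and 14 CPM in PDGFRα hi FB beside 11.8, 15.8 and 5.92 CPM in SMC, and neither was called against this population.

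The 2 matrix genes higher in SMC were *Postn* and *Mfap5*. *Postn*, periostin, was at 1528, 1390 and 2506 CPM in SMC, 991, 476 and 858 CPM in CD34+ FB, 29.4, 15.8 and 42.5 CPM in PDGFRα hi FB and 157, 78.4 and 163 CPM in Fgfr2+ FB. Every SMC library was above every FB library, with CD34+ FB the nearest population (log2 fold change 3.69, SE 0.31, adjusted p = 2.66e-06 against the mean, and 1.28, not called, against CD34+ FB). *Mfap5*, a microfibril protein, was at 130, 105 and 370 CPM in SMC and at 179, 160 and 154 CPM in CD34+ FB, but at 0.454 to 21.2 CPM in the other FB libraries (log2 fold change 4.24, or 3.42 without SMC replicate 3).

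**Figure D2:**
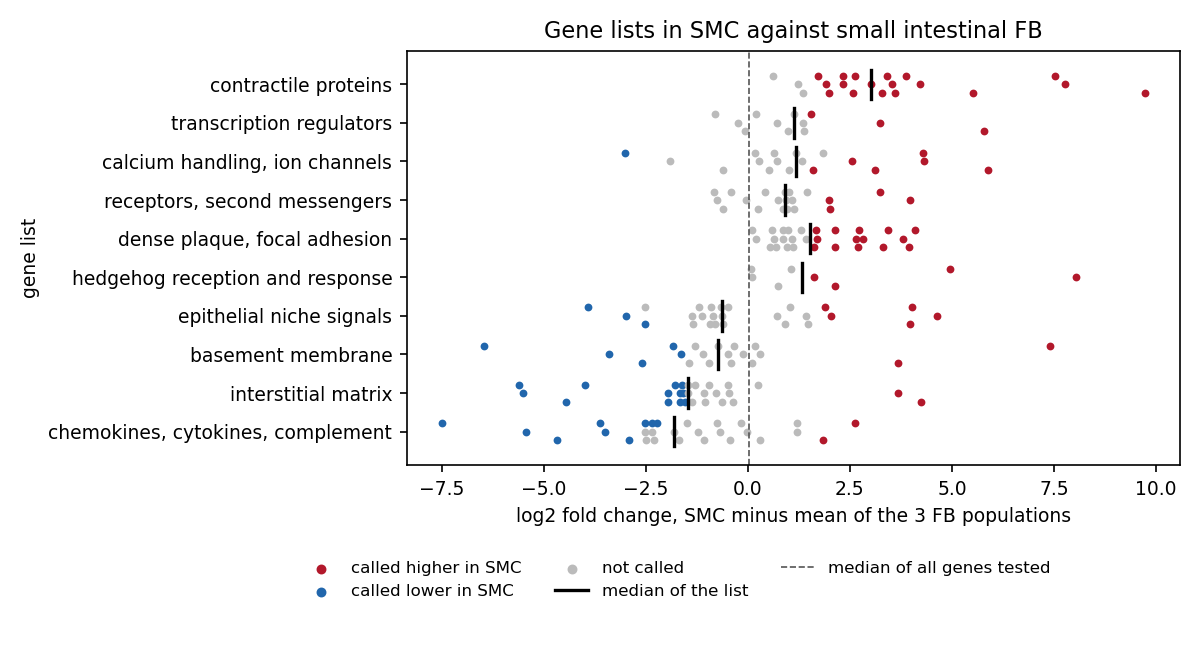
Log2 fold change of SMC minus the mean of the 3 FB populations (horizontal axis) for each tested gene of 10 lists, with called genes in colour, a black bar at the median of each list and a dashed line at the median of all genes tested (0.03). Genes with a population at 0 counts are not drawn but enter the medians. The contractile list has its median at 3.01 and the chemokine, cytokine and complement list at -1.82.

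Of 28 signals known from the epithelial stem cell niche, 5 were higher and 3 lower in SMC, against 4.73% and 2.56% of all genes, and the median log2 fold change was -0.64 (-0.73 with genes that had a population at 0 set to their bound). Without SMC replicate 3, 6 were higher and 7 lower. *Igf1*, insulin-like growth factor 1, was at 1173, 1305 and 2491 CPM in SMC and at a median of 385 and at most 783 CPM in FB, with no overlap (log2 fold change 2.03, SE 0.23, adjusted p = 5.63e-05, not called against Fgfr2+ FB). *Fgf7*, a growth factor for epithelial cells, was at 119, 105 and 168 CPM in SMC and between 0.278 and 67.6 CPM in FB (log2 fold change 4.64, SE 0.56, adjusted p = 9.26e-05, not called against CD34+ FB). *Wnt2b*, a canonical Wnt ligand, was at 657, 442 and 442 CPM in SMC, close to the 608, 651 and 500 CPM of CD34+ FB, while PDGFRα hi FB had 32.8, 13 and 9.19 CPM. Its log2 fold change of 1.90 against the mean went with one of 4.85 against PDGFRα hi FB and of -0.15 against CD34+ FB. *Chrdl1*, a secreted antagonist of bone morphogenetic proteins (BMP), was also higher against the mean, at 4.01 (3.28 without SMC replicate 3 and 4.62 without Fgfr2+ FB replicate 1).

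The 3 niche signals lower in SMC were *Bmp6*, *Bmp3* and *Frzb*. *Bmp6* was at 19, 19.4 and 1.62 CPM in SMC and between 28.5 and 207 CPM in FB (log2 fold change -2.99, SE 0.62, adjusted p = 0.00681), with no overlap, and was not called against Fgfr2+ FB. *Bmp3* was at 11.5, 7.99 and 33 CPM in SMC, like the 14.9, 16.1 and 16.1 CPM of CD34+ FB, and at 1070, 995 and 953 CPM in PDGFRα hi FB (log2 fold change -2.52 against the mean, or -3.41 without SMC replicate 3, and 0.21 against CD34+ FB). The secreted Wnt antagonist *Frzb* was at no more than 0.578 CPM in SMC and 0.113 CPM in PDGFRα hi FB, and its log2 fold change of -3.92 was not called without PDGFRα hi FB replicate 2 (-3.79) and was -4.80 without SMC replicate 2. *Bmp4* was at 584, 586 and 742 CPM in SMC and between 622 and 1867 CPM in FB and was not called (log2 fold change -0.60).

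Hedgehog proteins secreted by the epithelium are received by mesenchymal cells, and several genes of their reception and response were higher in SMC. Of 10 tested, 4 were higher and none lower, against 4.73% and 2.56% of all genes, and the median log2 fold change was 1.33, or 1.44 without SMC replicate 3 and 0.82 without SMC replicate 2. Without SMC replicate 1 or 2, 3 were higher. *Hhip*, the hedgehog-interacting protein and a target gene of the pathway, was at 2489, 3506 and 4249 CPM in SMC, 74.8, 69.4 and 34.4 CPM in CD34+ FB, 1.84, 4.18 and 2.38 CPM in PDGFRα hi FB and 9.4, 17.2 and 16.3 CPM in Fgfr2+ FB. *Gas1*, a hedgehog co-receptor, was at 181, 195 and 218 CPM in SMC and between 0.34 and 39.1 CPM in FB. Both were higher in SMC than in each FB population, with log2 fold changes of 8.03 (SE 0.31, adjusted p = 9.73e-10) and 4.96 (SE 0.45, adjusted p = 5.82e-06). The transcription factor *Gli1* was at 237, 267 and 131 CPM in SMC and 24.3 to 150 CPM in FB, and lost its call without SMC replicate 2 (log2 fold change 1.61 and 1.41). *Ptch1*, the main receptor and itself a target gene, was at 2212, 2777 and 2390 CPM in SMC and 2598, 2395 and 1711 CPM in Fgfr2+ FB, and was called against CD34+ FB but not against the mean (log2 fold change 1.06).

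Chemokines, cytokines and complement genes were lower in SMC in 9 of 29 tested and higher in 2, against 2.56% and 4.73% of all genes, and the median log2 fold change was -1.82. *C7*, a component of the membrane attack complex, was at 1.04, 2.7 and 2.91 CPM in SMC and at 66.6 (lowest), 385 (median) and 1309 CPM (highest) in FB (log2 fold change -7.49, SE 0.55, adjusted p = 9.52e-07). *Cxcl12*, which retains CXCR4-bearing leukocytes, was at 168, 222 and 89.8 CPM in SMC and between 412 and 1646 CPM in FB (log2 fold change -2.35, SE 0.30, adjusted p = 0.000124). For both, every SMC library was below every FB library, though *Cxcl12* was not called against CD34+ FB (-1.46). *Cxcl9* was lower than in each FB population (log2 fold change -2.52 against the mean), and the B cell chemokine *Cxcl13* lower than in CD34+ and Fgfr2+ FB (-5.44 against the mean). Complement *C3* was at 21.1, 40.9 and 34 CPM in SMC and 16.5, 14.4 and 13.5 CPM in PDGFRα hi FB but at 10815, 9750 and 6067 CPM in CD34+ FB. Its log2 fold change of -3.50 against the mean went with one of 1.16, not called, against PDGFRα hi FB. The eosinophil chemokine *Ccl11* and the alarmin *Il33* were the 2 genes higher in SMC. *Ccl11* was at 2173, 2754 and 3585 CPM in SMC and between 270 and 2619 CPM in FB (log2 fold change 1.84, SE 0.26, adjusted p = 0.000301), and was not called against Fgfr2+ FB. *Il33* was at 415, 250 and 507 CPM in SMC and between 5.22 and 199 CPM in FB (log2 fold change 2.62, SE 0.32, adjusted p = 9.33e-05), and was not called against CD34+ FB.

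Outside the lists, genes were named by the size of their difference. *Nmur2*, a receptor for neuromedin U, was at 347, 429 and 696 CPM in SMC and at 0 (lowest), 0.284 (median) and 0.501 CPM (highest) in FB. *Actc1*, cardiac α-actin, was at 276, 284 and 371 CPM in SMC and at no more than 1.11 CPM in FB. All SMC libraries expressed both genes and no FB library came near them, with log2 fold changes of 10.62 (SE 0.38, adjusted p = 6.97e-10) and 9.87 (SE 0.40, adjusted p = 1.84e-09). *Bves*, a popeye domain protein of muscle membranes, was at 16.2, 11 and 16.2 CPM in SMC and had no count in any of the 9 FB libraries, which made it at least 39.7-fold higher against a floor of 3 counts per library. *Vsig2*, an immunoglobulin superfamily gene, was at 25.9, 30.7 and 30.5 CPM in SMC, and the ratio to FB was 393 with a 95% exact Poisson interval of 191 to 977. *Ctnnd2*, δ-catenin, was at 71.2, 47.9 and 260 CPM in SMC and at no more than 0.473 CPM in FB (log2 fold change 9.79). *Galnt18*, a glycosyltransferase, was at 29.9, 27.7 and 17.7 CPM in SMC and at no more than 0.378 CPM in FB, and *Zfp612*, a zinc finger gene, at 20.8, 4.72 and 42.8 CPM and no more than 1.67 CPM, with Fgfr2+ FB at 0 for both. Such intervals and floors cover counting error only. *Bves*, *Vsig2*, *Ctnnd2* and *Galnt18* did not reach 6 counts in 3 libraries when an SMC library was left out and were then not tested. In the small intestinal pericyte libraries *Vsig2* was at 25.8, 33.5 and 36.2 CPM, as high as in SMC. *Nmur2*, *Actc1*, *Bves*, *Ctnnd2*, *Galnt18* and *Zfp612* had pericyte means of no more than 0.911 CPM.

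In the other direction, *Efcc1*, a coiled-coil gene of little known function, was at 0.73, 0.385 and 0.431 CPM in SMC and at 62 (lowest), 67.4 (median) and 91.4 CPM (highest) in FB. *Adamtsl1*, a secreted matrix protein, was at 0.104, 0.481 and 0.323 CPM in SMC and between 3.09 and 164 CPM in FB. *Ces1d*, a carboxylesterase that hydrolyses lipids, was at 0, 0.578 and 0.646 CPM in SMC and between 33.7 and 175 CPM in FB. These genes were near 0 in all 3 SMC libraries and lower than in each FB population, with log2 fold changes of -7.09 (SE 0.44), -6.85 (SE 0.72) and -7.86 (SE 0.76). *Alpl*, alkaline phosphatase, and *Pgf*, placental growth factor, had 2 and 1 counts in the 3 SMC libraries together, and the FB level was 381 (interval 106 to 3149) and 441 (interval 79.1 to 17413) times that of SMC. Both *Alpl* counts were in SMC replicate 3 and the *Pgf* count was in SMC replicate 1, so without that library SMC had none. *Edn3*, endothelin 3, had 5 counts in SMC, and its FB level was 319 times higher (interval 137 to 984), with PDGFRα hi FB at 124, 176 and 141 CPM. *Oas2*, an interferon-induced enzyme, was at no more than 0.73 CPM in SMC and between 10.6 and 53.8 CPM in FB (log2 fold change -6.35, ranging from -7.46 without SMC replicate 1 to -5.76 without SMC replicate 2). *Gpx3*, an extracellular glutathione peroxidase, was abundant in FB (778 to 4218 CPM) and at 291, 229 and 352 CPM in SMC (log2 fold change -2.62). *Prelp*, a proteoglycan, was at 560, 575 and 760 CPM in SMC and between 594 and 4873 CPM in FB (log2 fold change -1.56). It lost its call without SMC replicate 1 or 2, CD34+ FB replicate 2, PDGFRα hi FB replicate 2 or Fgfr2+ FB replicate 1 (-1.50 to -1.48).

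The SMC libraries also held fibroblast transcripts, and to very different degrees. Of 18 transcripts listed as shared by FB, of which *Fbln1* was low in PDGFRα hi FB here, none was higher and 8 were lower in SMC, against 4.73% and 2.56% of all genes, and the median log2 fold change was -1.47 (10 lower and -1.84 without SMC replicate 3). As a percentage of the mean FB level, their median in SMC was 27.0%, ranging from 1.01% to 165%, with medians of 24.1%, 26.1% and 36.0% in the 3 SMC libraries. The summed level of the 18 genes was 22193, 21327 and 29265 CPM in SMC, of which *Adamdec1* was the most abundant, against means of 95434, 32763 and 47237 CPM in CD34+, PDGFRα hi and Fgfr2+ FB. In the small intestinal pericyte libraries, measured the same way, the median was 17.9%, and 14 of the 18 genes had a higher level in SMC than in pericytes. The genes higher in pericytes were *Pcolce* (149%, and 32.7% in SMC), *Serping1* (70.3% and 37.5%), *Cygb* (58.5% and 14.7%) and *Lrp1* (50.5% and 22.5%). Above 50% of the mean FB level were 4 of the 18 genes in SMC and 6 in pericytes.

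*Adamdec1*, a secreted metalloprotease of the ADAM family known from the gut mucosa, was at 9476, 9730 and 11758 CPM in SMC, 4978, 6025 and 5458 CPM in CD34+ FB, 4436, 5182 and 4755 CPM in PDGFRα hi FB, 22193, 18914 and 16120 CPM in Fgfr2+ FB and 102, 46.7 and 105 CPM in pericytes. The 3 SMC libraries lay above all CD34+ and PDGFRα hi FB libraries and below all Fgfr2+ FB libraries, at 96.9%, 99.4% and 120% of the mean FB level, while the pericyte mean was at 0.862%. In edgeR's quasi-likelihood test the log2 fold change was 0.42 against the mean (SE 0.16, adjusted p = 0.129) and 0.96, 1.16 and -0.85 against CD34+, PDGFRα hi and Fgfr2+ FB (adjusted p of 0.012, 0.0026 and 0.0242), so that no contrast passed the fold threshold. Without SMC replicate 3 the value against the mean was 0.28. In TPM, which also scale by transcript length, *Adamdec1* was at 7762, 7928 and 3674 TPM in SMC and ranked 9, 10 and 19 among protein-coding genes there. By the same scale *Acta2* was at 5505, 4396 and 1995 TPM and *Myh11* at 3384, 2632 and 1403 TPM, so that *Adamdec1* was above both genes in each SMC library. TPM are not directly comparable between the SMC libraries. In SMC replicate 3 the top transcript, with 23.8% of the deposited TPM, had an assigned gene and stayed in. The top transcript of SMC replicates 1 and 2 (46.3% and 34.6%) had none and was left out.

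Of the other shared transcripts, 3 were also above 50% of the mean FB level. *Tcf21*, a transcription factor of visceral mesenchyme, was at 424, 533 and 389 CPM in SMC and between 120 and 465 CPM in FB (165% of the mean). *Fstl1*, a secreted glycoprotein, and *Rarres2*, the chemoattractant chemerin, were at 120% and 54.1%, and none of the 3 was called against the mean, while *Tcf21* was higher than in PDGFRα hi FB (log2 fold change 1.77). Collagen and proteoglycan transcripts were present in SMC, with *Dcn*, decorin, at 1202, 1916 and 1410 CPM in SMC (26.6%) and *Col1a1* at 2307, 1919 and 5369 CPM (27.4%). These percentages differed by population. *Dcn* was at 12.9%, 73.2% and 45.7% and *Col1a1* at 12.7%, 70.8% and 59.0% of the level in CD34+, PDGFRα hi and Fgfr2+ FB. *Dcn* had a log2 fold change of -1.47 and was called without SMC replicate 2 (-1.67) or CD34+ FB replicate 3 (-1.50). The transcripts below 10% were *Pdgfra* (1.01%, a gene of the gate), *Fbln1* (1.02%) and *Dpt* (4.45%). For *Fbln1* this value came from CD34+ FB (mean 3044 CPM) and Fgfr2+ FB (220 CPM), as SMC were at 120% of the level in PDGFRα hi FB. *Dpt*, dermatopontin, was at 74.4, 79 and 114 CPM in SMC and between 259 and 4797 CPM in FB (log2 fold change -3.93, SE 0.42, adjusted p = 2.63e-05). The matrix metalloproteinase *Mmp2* (20.6%), the endocytic receptor *Lrp1* (22.5%) and cytoglobin, *Cygb* (14.7%), were lower in SMC than in each FB population. Whether such transcripts came from the SMC themselves, from FB carried along in the sort or from free RNA was not tested.

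**Figure D3:**
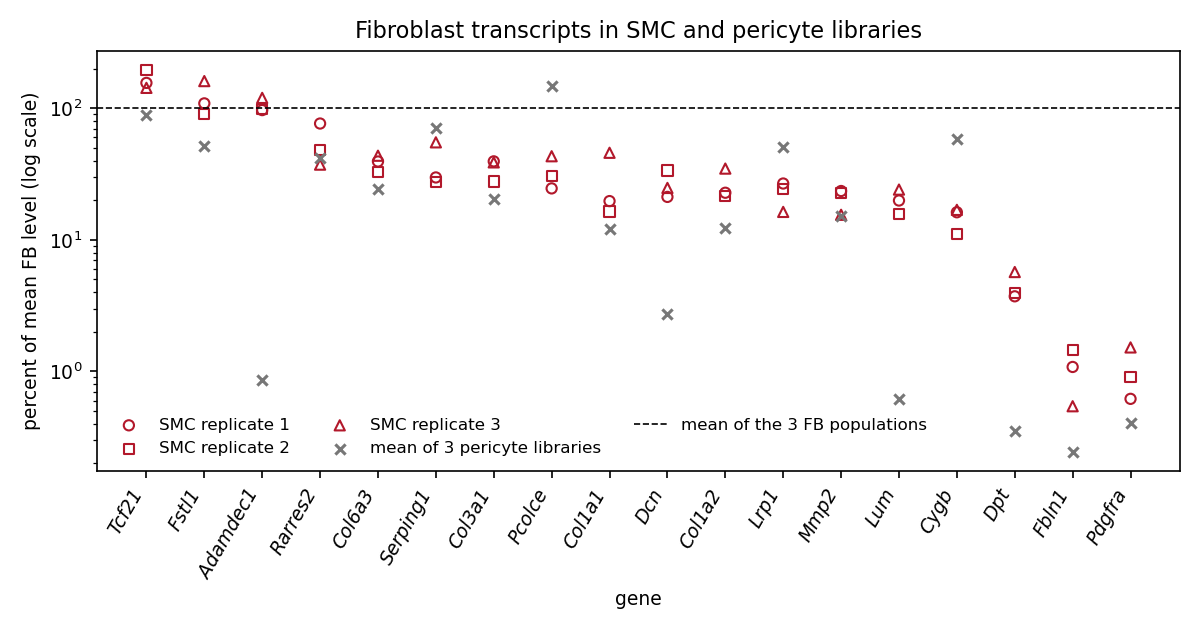
Level of 18 shared fibroblast transcripts in each SMC library (open symbols) and in the mean of the 3 pericyte libraries (crosses), as a percentage of the equally weighted mean of the 3 FB population means, on a log axis. SMC values run from 0.543% for *Fbln1* in SMC replicate 3 to 196% for *Tcf21* in SMC replicate 2. The lowest mean is that of *Pdgfra* (1.01%) and the highest that of *Tcf21* (165%), and *Adamdec1* lies at 96.9% to 120% in SMC and at 0.862% in pericytes.

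Transcripts typical of single FB populations were examined in the same way. Of 12 CD34+ FB transcripts, none was higher and 6 were lower against the mean, beside 4.73% and 2.56% of all genes (median log2 fold change -2.26, or -2.31 with the gene at 0 set to its bound), and 9 were lower against CD34+ FB themselves (2.75% of all genes). Without SMC replicate 1 or 2, CD34+ FB replicate 2, PDGFRα hi FB replicate 2 or Fgfr2+ FB replicate 1 or 2, 1 transcript was called higher. Against PDGFRα hi FB, 2 were higher and 4 lower (3.58% and 3.3% of all genes). The median level of the 12 was 6.17% of the mean FB level, with medians of 4.52%, 3.58% and 2.21% in SMC replicates 1, 2 and 3. *Sfrp1*, the most abundant of them in SMC, was at 67.2%, or at 43.1%, 39.8% and 119% in these libraries. This percentage depended on the population, with 33.7%, 8510% and 67.5% of the level in CD34+, PDGFRα hi and Fgfr2+ FB. With geometric means of the FB populations *Sfrp1* was at 238%. *Cd34* was at 11.7, 7.9 and 8.94 CPM in SMC and *Clec3b*, tetranectin, at 0.939, 2.6 and 0.646 CPM, against 35.1 to 675 and 28.1 to 168 CPM in FB (log2 fold changes -4.22, and -6.08 or -6.89 without SMC replicate 2). Of 10 PDGFRα hi FB transcripts, *Pdgfra* and *Bmp3* were lower against the mean (2.56% of all genes, and 4 transcripts without SMC replicate 3) and 8 against PDGFRα hi FB (3.3%), with a median level of 15.7% and a median log2 fold change of -1.23. None was higher against the mean, or 1 without SMC replicate 3. Against CD34+ FB, 4 were higher and 1 lower (2.25% and 2.75% of all genes). *Foxl1* and *Nrg1* were at 93.4% and 84.6% of the mean FB level, but at 0% and 15.5% in SMC replicate 3. Against CD34+, PDGFRα hi and Fgfr2+ FB, *Foxl1* was at 976%, 46.9% and 102% and *Nrg1* at 4382%, 113% and 37.9%. With geometric means of the FB populations they were at 76.5% and 193%. Of 5 Fgfr2+ FB transcripts, 3 were lower against the mean (2.56% of all genes) and all 5 against Fgfr2+ FB (2.61%), with a median level of 10.6% and a median log2 fold change of -2.90. The 3 were *Ces1d*, *Lpl* and *Cxcl14*, of which *Ces1d* was in these libraries lowest in Fgfr2+ FB (mean 61.5 CPM) and highest in CD34+ FB (171 CPM). *Cd34* and *Pdgfra*, which these lists count, were used to sort, so their calls and levels describe the gate. *Lpl*, lipoprotein lipase, was at 22, 35.1 and 31.7 CPM in SMC and between 112 and 567 CPM in FB (log2 fold change -2.90). *Cxcl14* was at 8.03, 1.54 and 0.754 CPM in SMC and lost its call without SMC replicate 2 (log2 fold change -2.91 and -2.56, and -4.48 without SMC replicate 1).

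Over all 409 genes called lower in SMC, the median SMC level was 9.93% of the mean FB level, with medians of 10.8%, 8.73% and 4.97% in SMC replicates 1, 2 and 3, and 206 of the genes were below 10% and 56 below 1%. Among the 158 of them with at least 100 CPM in FB, the median was 16.6% and the range 0.241% to 33.9%. These genes were selected as lower in SMC, so their low percentages follow from that selection. The upper end of this range follows from the fold threshold. There lay *H2-D1*, which presents antigen, the chaperone *Dnajb11*, *Shisa5*, *Thbs1* and *Mmp19* (32.9% to 33.9%), with log2 fold changes of -1.54 to -1.51. Their calls were lost without SMC replicate 1 (*Thbs1*, -1.41), SMC replicate 2 (*H2-D1* -1.34, *Dnajb11* -1.35, *Shisa5* -1.63, *Mmp19* -1.37) or SMC replicate 3 (*Shisa5*, -1.28), and each also without 3 to 6 of the FB libraries in turn (-1.55 to -1.33). *H2-D1* was also not called with DESeq2 or RLE factors. The 5 lowest were *Col4a5*, the apelin receptor *Aplnr*, the deiodinase *Dio2*, *Ces1d* and *C7*. *Dio2*, which activates thyroid hormone, was at 0.209, 0.289 and 0.538 CPM in SMC and at 295, 392 and 433 CPM in PDGFRα hi FB, with 1.11 to 10.6 CPM in the other FB libraries (log2 fold change -5.48, SE 0.66, adjusted p = 8.42e-05). *Aplnr* was at 0.209, 0.674 and 0.862 CPM in SMC, was called against PDGFRα hi and Fgfr2+ FB but not against CD34+ FB, and had a log2 fold change of -6.38 against the mean, or -5.63 without Fgfr2+ FB replicate 1.

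Markers of the pericytes, which share the ESAM-1+ gate, were present at a fraction of the pericyte level. The 12 pericyte markers summed to 4644, 4247 and 7676 CPM in SMC, of which 8 were detected in every SMC library and none was at 0 in all 3, to means of 4078, 3319 and 2292 CPM in CD34+, PDGFRα hi and Fgfr2+ FB, and to 55362, 36221 and 44975 CPM in pericytes. The most abundant was *Rgs5*, a regulator of G protein signalling, at 4080, 3821 and 7059 CPM in SMC, 3841, 4008 and 3398 CPM in CD34+ FB and 38740, 21514 and 33461 CPM in pericytes. Of 10 tested, *Rgs5* (log2 fold change 2.13) and the adhesion molecule *Mcam* (4.71, or 5.34 without Fgfr2+ FB replicate 1) were higher and *Abcc9*, *Steap4* and *Ndufa4l2* lower, beside 4.73% and 2.56% of all genes, and the median log2 fold change was -1.12. *Steap4* was at no more than 0.323 CPM in SMC (log2 fold change -5.23, or -6.00 without SMC replicate 3). *Ndufa4l2* (-4.60, and -7.38 without SMC replicate 1) lost its call without SMC replicate 2 (-4.06) or 3 (-4.14), any 1 of the CD34+ FB libraries (-4.62 to -4.57), PDGFRα hi FB replicate 1 (-4.68) or 2 (-4.19) or Fgfr2+ FB replicate 1 (-4.63) or 2 (-4.23).

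Other cells of the gut wall were represented by 60 markers, which summed to 146, 147 and 369 CPM in SMC and to between 182 and 638 CPM in the FB libraries. Markers of interstitial cells of Cajal summed to 25.1 to 498 CPM in FB, with a mean of 462 CPM in PDGFRα hi FB. In the FB libraries endothelial markers summed to 56.2 to 111 CPM, leukocyte markers to 16.2 to 74.3 CPM and glial and neuronal markers to 5.11 to 25.5 CPM. For endothelial markers SMC replicate 3 was thus above every FB library. The 12 endothelial markers summed to 66.3, 67.8 and 212 CPM (6 detected in every SMC library, most abundant *Pecam1* at 80.1 ± 70.7 CPM, *Cldn5* and *Plvap* at 0 in all 3), the 12 leukocyte markers to 30.5, 30.4 and 24.4 CPM (4 detected, most abundant *Itgam*, whose level is uncertain, and *Cd3e*, *Adgre1*, *Cd52* and *Tyrobp* at 0), and the 12 epithelial markers to 14.4, 16.0 and 72.9 CPM against at most 8.87 CPM in FB (4 detected, *Epcam*, *Krt8*, *Fabp1*, *Alpi* and *Lyz1* at 0). The most abundant epithelial marker was *Muc2*, the goblet cell mucin, at 8.35, 4.72 and 61.2 CPM in SMC (log2 fold change 6.07, or 4.09 without SMC replicate 3), which was the only one of 4 tested to be called, and their median was 0.82 (0.30 without SMC replicate 2 and 1.29 without PDGFRα hi FB replicate 2). Of all genes, 4.73% were higher and 2.56% lower. Of 10 endothelial genes tested *Tek* and *Plvap* were lower (median 0.33, from 0.02 without SMC replicate 3 to 0.77 without Fgfr2+ FB replicate 3), where *Tek*, the angiopoietin receptor, had a log2 fold change of -4.01, or -4.91 without SMC replicate 1. Of 9 leukocyte genes *Jchain* was lower (median -1.40, or -1.06 with genes at 0 set to their bound and -0.92 without SMC replicate 3), a call lost without SMC replicate 1 (-4.21) or 3 (-3.96), CD34+ FB replicate 2 (-4.19) or 3 (-4.55) or PDGFRα hi FB replicate 1 (-4.27) or 2 (-4.50), where the log2 fold change was -4.48 with all libraries and -6.18 without SMC replicate 2.

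Glial and neuronal markers summed to 13.8, 14.9 and 23.8 CPM (2 of 10 detected in every SMC library, *Gfap* and *Uchl1* among those at 0, none of 3 tested called, median 0.76 or 0.31 at the bound, 0.27 without SMC replicate 3 and 0.49 without CD34+ FB replicate 1). Those of interstitial cells of Cajal summed to 16.1, 8.76 and 30.6 CPM (2 of 3 detected, most abundant *Etv1*), and *Etv1* and *Kit* were lower, beside 2.56% of all genes (median -2.59, or -3.29 without SMC replicate 3). *Etv1* had a log2 fold change of -2.59, or -3.29 without SMC replicate 3. *Kit* had -5.16, or -7.14 without SMC replicate 1, and its call was lost without SMC replicate 2 (-4.68) or 3 (-4.74). Mesothelial markers summed to 3.65, 0.867 and 4.74 CPM (1 of 6 detected, most abundant *Wt1*, *Msln* at 0, the 1 tested not called at 0.63, or 1.04 without SMC replicate 2 and -0.14 without SMC replicate 3). Erythroid markers summed to 1.88, 8.57 and 0 CPM (most abundant *Alas2*, *Hba-a1*, *Hbb-bs* and *Hbb-bt* at 0, the 1 tested not called at -0.99, or -2.62 without SMC replicate 2, -0.42 without SMC replicate 3 and -0.04 without Fgfr2+ FB replicate 1). The part of these cells in the results was not tested.

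Stress response genes, which cell isolation is known to induce, summed to 815, 879 and 498 CPM in SMC, to means of 3470, 823 and 743 CPM in CD34+, PDGFRα hi and Fgfr2+ FB, and to 5650, 13828 and 6109 CPM in pericytes. All 12 were detected in every SMC library, the most abundant being the immediate early gene *Egr1* at 222, 291 and 178 CPM. Of 12 tested, none was higher and *Egr1* and *Atf3* were lower, beside 4.73% and 2.56% of all genes. The median log2 fold change was -0.57 (-0.15 without SMC replicate 3 and -0.96 without SMC replicate 2), and neither call held without SMC replicate 3. The log2 fold change of *Egr1* was -1.59, or -1.47 without that library. *Atf3* had -3.50, or -4.29 without SMC replicate 1 and -2.82 without PDGFRα hi FB replicate 3, and was not called without SMC replicate 2 (-3.16) or 3 (-3.34), CD34+ FB replicate 1 (-3.59), 2 (-3.60) or 3 (-3.27) or Fgfr2+ FB replicate 3 (-3.31). Mitochondrially encoded genes moved with SMC replicate 3. Of 13 tested, 11 were called higher in SMC, beside 4.73% of all genes, and *mt-Cytb*, cytochrome b, was at 8940, 12046 and 51230 CPM in SMC and between 3063 and 6401 CPM in FB. Its log2 fold change of 2.36 became 1.11 without SMC replicate 3, which ended the call. *mt-Nd4*, *mt-Co1*, *mt-Nd5*, *mt-Nd2* and *mt-Co2*, also among the largest CPM differences, had log2 fold changes of 3.17, 1.76, 2.50, 3.06 and 2.18, and none was called without SMC replicate 3 (1.21, 1.06, 0.94, 1.02 and 1.02). The levels of *mt-Nd4*, *mt-Co1* and *mt-Co2* are uncertain, since they share stretches with other genes. With mitochondrially encoded genes left out of the fit, 1150 genes were called (744 higher, 406 lower), all of them among the 1164 called before. Beyond this refit, the part of the mitochondrial and stress transcripts in the other results was not tested.

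Since 18 of the 21 contractile genes were called higher, the promoters of the list were searched on both strands for the CArG box. Of the 21 contractile genes, 18 had promoter sequences of 300 bases around the transcription start (22 promoters), and in 2 of them (11.1%) the CArG box was found, against 488 of 27025 genes (1.81%) and 535 of 32851 promoters (1.63%) in all. No promoter sequence was matched for *Myh11*, *Actg2* and *Tagln*, so these genes were not searched. The 2 genes with the box were *Myl9* and *Myl6*, both called higher in SMC, and their promoters are shown because they carry the match, in capitals. The level of *Myl6* is uncertain, as stated above. A match is a description of the sequence, and no match says only that these letters are not in the window searched. The sequences are from RefSeq, build GRCm38.p6, at chr2:156775214-156775513 on the plus strand for *Myl9*, where the CArG box begins at position -161 from the start of transcription, and at chr10:128492960-128493259 on the minus strand for *Myl6*, where it begins at position -50.
Myl9: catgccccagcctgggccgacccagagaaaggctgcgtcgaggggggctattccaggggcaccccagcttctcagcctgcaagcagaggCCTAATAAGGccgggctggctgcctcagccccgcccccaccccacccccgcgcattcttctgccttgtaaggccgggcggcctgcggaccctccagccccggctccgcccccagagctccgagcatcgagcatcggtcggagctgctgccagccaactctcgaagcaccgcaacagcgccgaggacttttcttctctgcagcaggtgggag
Myl6: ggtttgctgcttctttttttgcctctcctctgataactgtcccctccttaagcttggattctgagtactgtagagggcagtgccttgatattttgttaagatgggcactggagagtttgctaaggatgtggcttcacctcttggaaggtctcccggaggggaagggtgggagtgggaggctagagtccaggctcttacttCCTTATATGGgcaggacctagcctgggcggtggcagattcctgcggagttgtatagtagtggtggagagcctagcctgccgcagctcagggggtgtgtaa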

How the data were processed

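RNA of the sorted cells had been amplified (Ovation RNA-Seq System V2) and sequenced as single 50-base reads on a HiSeq2500. Per the labels and the study's methods, the authors checked reads with FastQC 0.11.2, trimmed them with Trim Galore 0.4.0 and quantified transcripts with kallisto 0.42.5, and they deposited an estimated count and a TPM for each transcript. The kit does not mark strand, so a gene and its antisense partner cannot be told apart. Here, 97116 of 98492 transcripts were assigned to 32342 genes of GENCODE release M21, and the deposited estimated counts were added up per gene, then rounded. The deposited TPM were not used for gene levels, and TPM were recomputed over the matched genes. A gene was tested if 3 or more of the 12 libraries held 6 or more counts, and fitted with edgeR 4.0.16 (R 4.3.3; TMM factors, glmQLFit, glmQLFTest; Benjamini-Hochberg adjustment over all genes tested), with 1 mean per population and no covariate. CPM used TMM factors over the 15 small intestinal libraries, pericytes included. No library was a duplicate of another. Replicates were independent experiments on pooled mice. Genes sharing at least 50% of their 31-base stretches with other genes are reported as uncertain (51 of the 1164 called).

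Genes named were taken from the 24 lists, not all of whose members are named (contractile proteins, transcription regulators, calcium handling and channels, receptors and second messengers, dense plaque, basement membrane, interstitial matrix, niche signals, hedgehog, chemokines and complement, shared and population-typical FB transcripts, markers of other cells, stress response, sorting gate), the 10 largest fold changes among non-overlapping calls of each direction (10 CPM or more) and the 10 largest CPM differences, and the FB genes with the 5 lowest and 5 highest shares in SMC, 1 pseudogene aside. Members and lists were chosen with earlier results of these data known. Alternatives were DESeq2 1.42.0, other scalings, filters, sets of libraries and FB populations, a replicate block and leaving out single libraries.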

Additional observations from a re-analysis of the deposited data

How the results depend on the processing

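Of 151 named genes tested, 133 were called, 70 of these kept their call in every alternative and none changed direction. Of the 18 not called, 4 were called in some alternative, and *Pecam1* and *Wt1*, both not called, changed sign. With 1 library left out *Pecam1* ranged from -0.15 to 1.26 and *Wt1* from -0.14 to 1.04, with the negative values without SMC replicate 3. With PDGFRα hi FB replicate 3 left out as well they were at -0.05 and -0.05, and without Fgfr2+ FB replicate 3 in addition *Pecam1* was at -0.11. Against the mean, 1164 calls (755 higher, 409 lower) became 601 (380 and 221) with the 9 FB libraries as 1 group, where 46 named calls were lost, and 760 (496 and 264) with all 15 small intestinal libraries. The 46 were *Myl9*, *Tagln*, *Cald1*, *Mrvi1*, *Srf*, *Casq2*, *Abcc9*, *Avpr1a*, *Ptger3*, *Itga8*, *Cav1*, *Lama4*, *Col4a5*, *Col4a6*, *Agrn*, *Col15a1*, *Col1a2*, *Lum*, *Fbln1*, *Mfap5*, *Postn*, *Wnt2b*, *Chrdl1*, *Fgf7*, *Bmp3*, *Frzb*, *Gli1*, *Ccl11*, *Il33*, *Cxcl14*, *Cxcl9*, *C3*, *Rgs5*, *Ncam1*, *Aplnr*, *Dio2*, *Ndufa4l2*, *Steap4*, *Tek*, *Jchain*, *Kit*, *Etv1*, *Egr1*, *Atf3*, *Prelp* and *Shisa5*. DESeq2 called 734 genes lower. Leaving out 1 library gave 816 to 1351 calls, 451 to 834 higher and 332 to 517 lower, and leaving out SMC replicate 3 with PDGFRα hi FB replicate 3 gave 462 higher.

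Against CD34+ FB, 799 calls became 1311 with DESeq2, 500 with all 15 libraries and 464 to 954 with 1 library left out (494 without CD34+ FB replicate 3). Against PDGFRα hi FB, 1099 became 1745 with DESeq2 and 717 with all 15 libraries. Against Fgfr2+ FB, 899 became 1787 with DESeq2, 466 with all 15 libraries, 569 with all 30, and 1466 without SMC replicate 3, PDGFRα hi FB replicate 3 and Fgfr2+ FB replicate 3. With geometric means of the FB populations the median level of shared fibroblast transcripts was 34.7% in place of 27.0%. *Adamdec1* was at 130% of the FB level with geometric means and 81.8% in TPM, in place of 105%. Markers of other cells summed to 147 to 258 CPM with 1 SMC library left out, in place of 221 CPM. The causes were not tested.

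With CD34+ FB left out of the mean, 18 named calls were lost (*Cald1*, *Mrvi1*, *Srf*, *Casq2*, *Vcl*, *Lama5*, *Col15a1*, *Col1a2*, *Lum*, *Frzb*, *Ccl11*, *C3*, *Egr1*, *Atf3*, *H2-D1*, *Dnajb11*, *Shisa5* and *Mmp19*), without PDGFRα hi FB 15 (*Atp2b4*, *Abcc9*, *P2ry1*, *Ptger3*, *Lama4*, *Agrn*, *Col6a2*, *Wnt2b*, *Bmp3*, *Gli1*, *Rgs5*, *Ncam1*, *Kit*, *Prelp* and *Thbs1*) and without Fgfr2+ FB 13 (*Cald1*, *Srf*, *Ptger3*, *Agrn*, *Col15a1*, *Fn1*, *Chrdl1*, *Frzb*, *Cxcl14*, *Ndufa4l2*, *Jchain*, *Shisa5* and *Mmp19*). All 15 libraries ended 9 (*Srf*, *Casq2*, *Agrn*, *Col15a1*, *Gli1*, *Ndufa4l2*, *Jchain*, *Kit* and *Shisa5*), all 30 libraries 9 (*Srf*, *Col15a1*, *Frzb*, *Cxcl9*, *Ndufa4l2*, *Jchain*, *Kit*, *Shisa5* and *Mmp19*), library totals only 7 (*Cald1*, *Srf*, *Atp2b4*, *Agrn*, *Ndufa4l2*, *Atf3* and *mt-Co1*), DESeq2 3 (*mt-Nd4*, *mt-Nd2* and *H2-D1*), RLE factors 1 (*H2-D1*) and upper-quartile factors 1 (*Srf*). Besides genes for which the text says so, the following were called against the mean but not against PDGFRα hi FB: *Myl6*, *Cald1*, *Synpo2*, *Srf*, *Vcl*, *Col15a1*, *Frzb*, *Tek*, *Plvap*, *Jchain*, *Zfp612* and *Mmp19*. Not against Fgfr2+ FB: *Trpc6*, *Csrp1*, *Steap4*, *Prelp* and *Dnajb11*. Not against any single population: *Ptger3*, *Lama5* and *Shisa5*. Not against CD34+ FB: *Lama4*, *Agrn*, *Col6a2*, *Mfap5*, *Chrdl1*, *Cxcl14*, *Rgs5* and *Etv1*. Not against PDGFRα hi FB or Fgfr2+ FB: *Lum*, *Egr1*, *Atf3* and *H2-D1*. Not against CD34+ FB or PDGFRα hi FB: *Fn1* and *Ndufa4l2*. Not against CD34+ FB or Fgfr2+ FB: *Wnt2b*, *Gli1*, *Ncam1*, *Kit* and *Thbs1*.

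With the replicate number as a replicate block, 1164 calls became 920 (526 higher, 394 lower), and *Ptger3*, *Ndufa4l2*, *Atf3*, *Prelp*, *H2-D1* and *Thbs1* were not called. Pairing of same-numbered libraries was not established: 1 of 18 same-number pairs correlated above 0.1 (r from -0.034 to 0.14), while 8 of 12 libraries correlated best with a library of their own number, a hint from the data. The paper speaks of sorting subsets of both intestines from the same mice, but the labels do not tie the replicate numbers to shared mice or experiments. Leaving out several libraries together, leaving out mitochondrially encoded genes (1150 calls) and the alternatives for markers of other cells were added after the data had been seen. With 3 libraries per population, small differences go undetected, and a bulk library cannot separate the cells mixed in it.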
